A study of Mus musculus with 73 samples.

Results

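Adrenal glands of XX mice with conditional loss of Znrf3 (Znrf3 cKO, labelled KO) were compared with glands of XX wild-type littermate controls (WT) at 4 weeks of age, across all genes of the deposited expression table. The libraries were chosen by their labels alone, namely those labelled Female, 4W and either KO or WT, which gave 4 Znrf3 cKO and 4 WT libraries, 8 of the 73 libraries of the series. The series as a whole follows Znrf3 cKO and WT adrenals of both sexes from 4 to 78 weeks, and 4 weeks is its first age. Each library was made from polyadenylated RNA of whole adrenal glands, which were cleaned of excess fat, and gene levels are RPKM, reads scaled to exon length and sequencing depth.

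Znrf3 cKO mice carried 2 floxed Znrf3 alleles (Znrf3F/F) and the Sf1-Cre transgene, in which Cre is driven by regulatory sequence of Nr5a1, the gene of the steroidogenic transcription factor SF-1. The loxP sites flank exons that encode the RING domain of ZNRF3. Recombination was therefore directed to steroidogenic cells, and chromaffin cells, endothelium and leukocytes of the same glands are not its stated target. All mice were kept on a C57Bl/6 background, and the study's breeding scheme also held the mTmG reporter. Whether the WT littermates carried Cre is not given in the sources used here, so a part of the transgene itself in a difference between the groups cannot be told apart from that of Znrf3 loss.

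ZNRF3 is a membrane E3 ubiquitin ligase that removes Frizzled receptors from the cell surface and so dampens WNT signalling. R-spondins, which capsular cells secrete in the adrenal, bind LGR receptors and clear ZNRF3 from the membrane. The cortex beneath the capsule is built of an outer zona glomerulosa that makes aldosterone and an inner zona fasciculata that makes corticosterone, and young female mice keep an innermost layer of fetal origin, the X-zone, around the medulla with its chromaffin cells.

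The shallowest library had 34326340 reads (Znrf3 cKO 1) and the deepest had 57175436 reads (WT 1), as recovered from the steps of the RPKM values, so that 1 read on a gene with 1 kilobase of exons was worth 0.0182 to 0.0291 RPKM. All 8 libraries had the transcripts of a steroid-producing adrenal, with Cyp11a1, the first enzyme of steroid synthesis, at 724 RPKM or more in each. They also carried those of XX tissue, with Xist between 75.9 and 116 RPKM and Ddx3y, a gene of the Y chromosome, at 0.0349 RPKM or less. Markers of ovary or testis, liver and kidney were low, with the exception of Znrf3 cKO 3, where the summed level of 9 kidney markers was 98.6 RPKM against 1.37 RPKM or less in every other library. Znrf3 cKO 2 and WT 1 stood apart from their groups in immune transcripts. The sum of 26 interferon-induced genes was 529.6, 4952, 681 and 637 RPKM in the Znrf3 cKO libraries and 3369, 1140.3, 289 and 1119.8 RPKM in the WT libraries. The sum of 18 macrophage markers was 310, 954, 289 and 337 RPKM in Znrf3 cKO and 855, 411, 328 and 415 RPKM in WT libraries. The main counts were also made without each of these 3 libraries, and ranges are given where a count moved most.

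**Figure D1:**
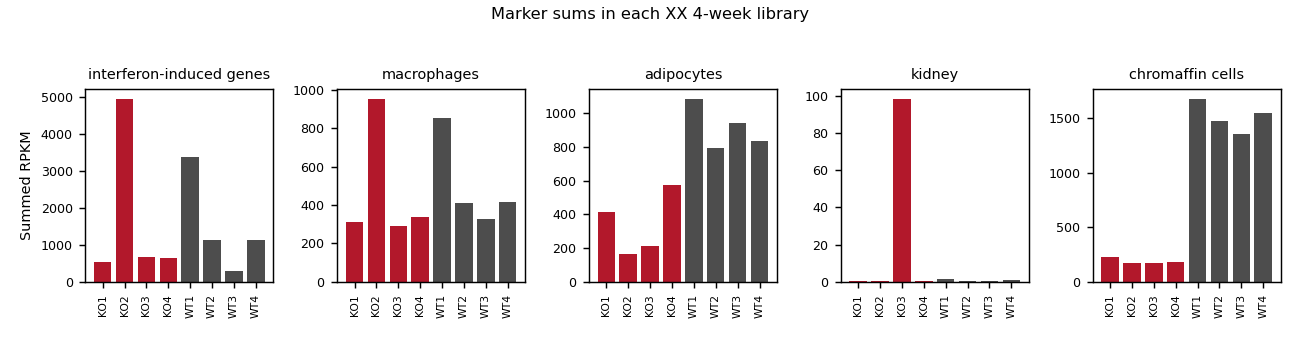
Summed RPKM of 5 marker lists (y axes, linear, from 0) in each XX library at 4 weeks (x axes, KO1 to KO4 in red, WT1 to WT4 in grey). KO2 and WT1 hold the highest interferon-induced and macrophage sums, KO3 alone holds kidney transcripts (98.6 RPKM), and the chromaffin sum lies between 170 and 225 RPKM in all 4 KO libraries and between 1355 and 1679 RPKM in all 4 WT libraries.

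Genes were tested where Znrf3 cKO or WT libraries averaged 0.5 RPKM or more. Of these 19667 genes, 2809 were higher in Znrf3 cKO than in WT adrenals (14.3% of the genes tested) and 1878 were lower (9.55%), together 23.8%, at an adjusted p below 0.05 (limma on log2(RPKM + 1), Benjamini-Hochberg over all tested genes). Fold changes on this scale understate the change of genes near or below 1 RPKM. The libraries are 4 per group, and no source used here states that each came from a different mouse. The p-values thus rest on variation among libraries, part of which may be technical. The 4 Znrf3 cKO libraries did not overlap the 4 WT libraries for 27.3% of the tested genes, with 16.2% higher and 11% lower in Znrf3 cKO. The median log2 fold change over all tested genes was 0.03. With the libraries rescaled to a common RPKM sum, the split turned over, to 1729 higher and 2444 lower genes around a median of -0.07, so that 41.4% of the calls were higher genes against 59.9% as deposited. No gene called under the deposited scaling was called in the opposite direction under the common sum.

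Large changes were mostly falls. Among the called genes whose log2 fold change was at least 1 in size, 78 were higher and 356 lower in Znrf3 cKO adrenals, and among those of at least 2 in size, 2 were higher and 47 lower. Protein-coding genes alone numbered 1309 higher (9.74% of 13433) and 1646 lower (12.3%). Processed pseudogenes, which share reads with the genes they were copied from, numbered 1359 higher and 78 lower of 3701 tested, and are not described further.

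The lists of marker and pathway genes differed widely in their share of called members. All tested chromaffin genes fell, and X-zone, adipocyte and capsular lists also held many lower and no higher genes. The main steroidogenic and macrophage lists had a median log2 fold change near 0. The background was 14.3% higher and 9.55% lower over all genes, and 9.74% and 12.3% over protein-coding genes alone.

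**Figure D2:**
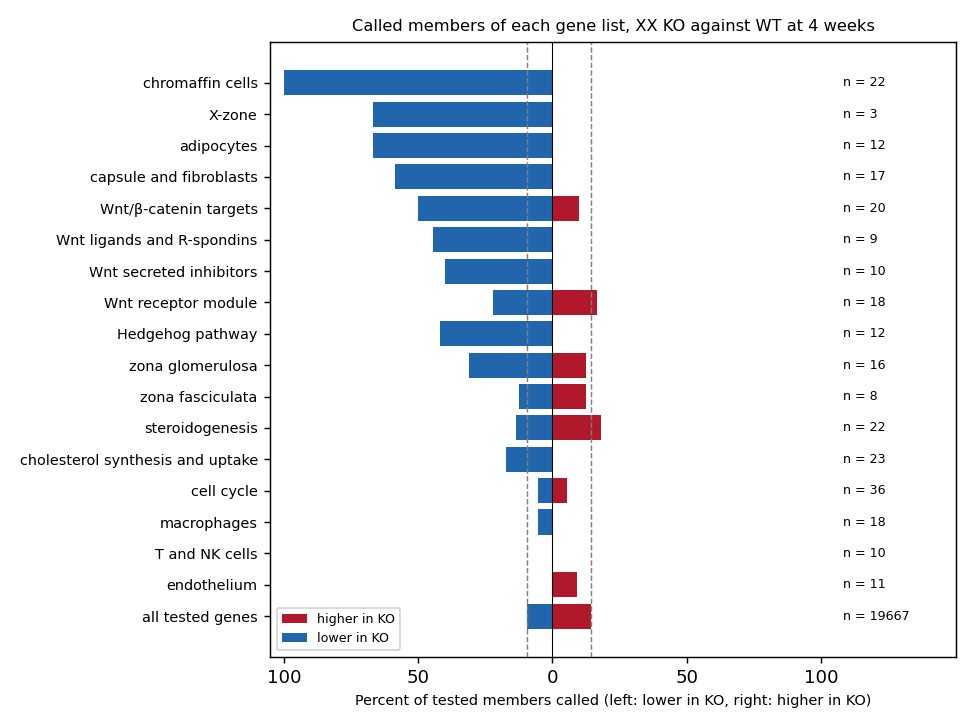
Percent of the tested members of each gene list (rows, n tested at right) called higher (red, right of 0) or lower (blue, left of 0) in Znrf3 cKO than in WT adrenals of XX mice at 4 weeks; the dashed lines mark the shares over all tested genes, 14.3% higher and 9.55% lower. The chromaffin bar reaches 100% to the left, and the bars of X-zone, adipocyte and capsular genes lie wholly on the left.

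Znrf3 itself, on chr11:5276324-5444847 (minus strand, mm10), had more rather than fewer reads after Cre recombination. Its level was 8.77, 7.76, 9.21 and 8.59 RPKM in Znrf3 cKO libraries, against 3.66, 4.84, 4.67 and 4.74 RPKM in WT libraries. Every Znrf3 cKO library lay above every WT library, and WT 1 was the lowest of the 8 (log2 fold change 0.81, SE 0.09, adjusted p = 0.00133). The value sums all exons of the gene, of which the deletion removes only those of the RING domain, so it neither shows the deletion nor checks the labels. The same direction was measured in XY adrenals at 4 weeks, with a mean of 9.92 ± 1.04 RPKM in Znrf3 cKO and 4.37 ± 0.528 RPKM in WT glands (SD, n = 4 each).

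The other members of the WNT receptor module mostly differed little. Of 18 tested, 3 were higher (Znrf3, Ryk and Fzd1), 4 were lower (Lgr5, Rnf43, Lgr4 and Lrp6) and 11 did not pass, with a median log2 fold change of -0.12. Lgr5, which encodes an R-spondin receptor, was measured at 0.371, 0.318, 0.262 and 0.215 RPKM in Znrf3 cKO libraries, against 2.70, 2.50, 2.56 and 2.63 RPKM in WT libraries. The highest Znrf3 cKO value lay far below the lowest WT value (log2 fold change -1.48, SE 0.07, adjusted p = 5.32e-05). Rnf43, the paralogue of Znrf3 with the same action on Frizzled, had 0.266, 0.370, 0.195 and 0.272 RPKM in Znrf3 cKO libraries, against 0.709, 1.07, 1.62 and 1.16 RPKM in WT libraries. Its groups did not overlap either, at lower levels throughout in Znrf3 cKO (log2 fold change -0.73, SE 0.13, adjusted p = 0.00633). Lgr4, the more abundant R-spondin receptor of the gland, had a mean of 26.7 ± 2.33 RPKM in Znrf3 cKO and 40.8 ± 7.32 RPKM in WT glands (± SD, n = 4 each, as for all means that follow; log2 fold change -0.58, SE 0.13, adjusted p = 0.0138).

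Several R-spondin and WNT ligand genes were lower in Znrf3 cKO glands. Rspo3, the capsular R-spondin that sustains the zona glomerulosa in mice, had 2.12, 1.39, 1.43 and 1.66 RPKM in Znrf3 cKO libraries, against 8.81, 8.19, 9.05 and 8.26 RPKM in WT libraries. Its Znrf3 cKO levels were all below its WT levels, with narrow spread in both groups (log2 fold change -1.86, SE 0.10, adjusted p = 5.32e-05). Wnt2b, a WNT ligand of the capsule, had 2.55, 1.39, 1.57 and 1.51 RPKM in Znrf3 cKO libraries, against 5.51, 5.04, 5.05 and 4.65 RPKM in WT libraries. Again no library of one group reached the range of the other (log2 fold change -1.15, SE 0.13, adjusted p = 0.0012). In all, 4 of 9 tested ligand genes fell (Rspo3, Wnt2b, Wnt6 and Rspo1), none rose, and the median log2 fold change was -0.31, with 2 to 7 lower under the alternatives. Wnt4, the ligand of the glomerulosa itself, had 39.2, 43.1, 52.6 and 45.1 RPKM in Znrf3 cKO libraries, against 37.0, 30.5, 49.7 and 39.3 RPKM in WT libraries. Its groups overlapped and the difference did not pass (log2 fold change 0.21, SE 0.15, adjusted p = 0.348).

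Targets of β-catenin were not raised as a group. Axin2, a negative regulator that β-catenin induces in nearly every tissue, had 6.64, 6.62, 7.27 and 6.97 RPKM in Znrf3 cKO libraries, against 6.11, 5.99, 7.38 and 6.64 RPKM in WT libraries. The groups overlapped almost fully (log2 fold change 0.07, SE 0.08, adjusted p = 0.571). Nkd1, an inducible inhibitor acting on Dishevelled, had 5.33, 4.12, 4.58 and 3.54 RPKM in Znrf3 cKO libraries, against 9.97, 7.14, 10.1 and 8.83 RPKM in WT libraries. Here all Znrf3 cKO libraries were below all WT libraries (log2 fold change -0.89, SE 0.13, adjusted p = 0.00342). Lef1, which encodes a partner of β-catenin on DNA, had 0.453, 0.276, 0.304 and 0.242 RPKM in Znrf3 cKO libraries, against 0.911, 0.593, 0.518 and 0.572 RPKM in WT libraries. Its Znrf3 cKO values were again all below its WT values, but at these low levels the difference missed the threshold (log2 fold change -0.32, SE 0.10, adjusted p = 0.0529). It passed in 4 of 15 alternatives, with a log2 fold change of -0.83 for a pseudocount of 0.1 RPKM (adjusted p = 0.0467), -0.32 in one fit over all groups (adjusted p = 0.0228), -0.35 with a common RPKM sum (adjusted p = 0.0345) and -1.08 with voom on the recovered reads (adjusted p = 0.0165). Of 20 tested targets, 10 fell (Lgr5, Apcdd1, Nkd1, Vsnl1, Rnf43, Fgf20, Ccnd1, Dkk3, Notum and Fgf9), 2 rose (Myc and Tcf7) and 8 did not pass, with a median of -0.40. Between 8 and 11 were lower and 1 to 2 higher under the alternatives tried, and 1 was higher without any 1 library other than WT 1.

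Several of these falls are in genes whose products block WNT signals outside the cell. Sfrp1, which binds WNT ligands, averaged 4.75 ± 0.400 RPKM in Znrf3 cKO and 9.34 ± 0.854 RPKM in WT glands (log2 fold change -0.85, SE 0.09, adjusted p = 0.000863). Apcdd1, a membrane inhibitor, averaged 3.95 ± 0.866 RPKM in Znrf3 cKO and 8.97 ± 0.995 RPKM in WT glands (log2 fold change -1.02, SE 0.13, adjusted p = 0.00222). Notum, a secreted enzyme that removes the lipid of WNT proteins, averaged 0.591 ± 0.182 RPKM in Znrf3 cKO and 1.45 ± 0.434 RPKM in WT glands (log2 fold change -0.61, SE 0.15, adjusted p = 0.0184). With Dkk3 these were 4 lower and no higher genes of 10 tested secreted or membrane inhibitors. Within the cell, 23 core genes of the β-catenin branch were tested. The corepressors Tle2 (log2 fold change -1.14) and Tle1 (log2 fold change -0.69) were the 2 lower members, and Tcf7 the only higher one (log2 fold change 0.37). These shares, 8.7% lower and 4.35% higher, lay below the 9.55% and 14.3% over all genes.

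Genes of the capsule and of fibroblasts fell together, 10 of 17 tested with none higher and a median log2 fold change of -0.66. The 10 were Rspo3, Fbln1, Pdgfra, Tcf21, Lum, Gli1, Dcn, Postn, Nr2f2 and Dpt, whereas Col1a1, Col1a2 and Col3a1 did not pass. The summed level of the list was 119.8, 95.2, 91.4 and 134 RPKM in Znrf3 cKO libraries and 221, 169, 211 and 189 RPKM in WT libraries, without overlap. Between 7 and 11 members were lower under the alternatives. Pdgfra, a receptor of mesenchymal cells, had 2.71, 3.005, 1.82 and 2.19 RPKM in Znrf3 cKO libraries, against 8.27, 6.57, 5.31 and 5.87 RPKM in WT libraries. No Znrf3 cKO library reached the WT range (log2 fold change -1.13, SE 0.15, adjusted p = 0.00231). Because whole glands were sequenced, fewer cells of a type, a larger share of other cells and less RNA per cell cannot be told apart, here or for any marker described.

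Hedgehog signals pass from the glomerulosa, which makes SHH, to capsular cells that answer with GLI1. Shh had 3.85, 3.10, 1.99 and 1.82 RPKM in Znrf3 cKO libraries, against 5.20, 4.61, 4.96 and 4.49 RPKM in WT libraries. Znrf3 cKO levels were lower in every library, but the call was lost without Znrf3 cKO 3 or without any 1 of WT 2, WT 3 and WT 4, and in a fit over all groups of the series (log2 fold change -0.69, SE 0.17, adjusted p = 0.0214, up to 0.163 under the alternatives). Gli1 had 0.768, 0.554, 0.685 and 0.634 RPKM in Znrf3 cKO libraries, against 1.34, 1.30, 1.93 and 1.39 RPKM in WT libraries. Its groups did not overlap (log2 fold change -0.58, SE 0.10, adjusted p = 0.00561), although a fit over all groups gave an adjusted p of 0.0816. Ptch1, the SHH receptor and a target of the pathway, averaged 3.17 ± 0.215 RPKM in Znrf3 cKO and 5.94 ± 0.946 RPKM in WT glands (log2 fold change -0.73, SE 0.11, adjusted p = 0.0035).

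The genes that mark the X-zone were far lower in Znrf3 cKO glands. Akr1c18, on chr13:4132615-4150654, encodes the 20-alpha-hydroxysteroid dehydrogenase that is the classical X-zone marker, and had 15.7, 21.7, 13.6 and 40.9 RPKM in Znrf3 cKO libraries, against 1297, 4616, 3675 and 3617 RPKM in WT libraries. The Znrf3 cKO mean lay 144-fold below the WT mean, and within WT the level of WT 1 was the lowest (log2 fold change -7.09, SE 0.45, adjusted p = 0.000139). Pik3c2g, on chr6:139587221-139969284, encodes a class II phosphoinositide 3-kinase of the same layer and had 0.00230, 0.0269, 0.0367 and 1.22 RPKM in Znrf3 cKO libraries, against 4.38, 32.6, 24.6 and 28.3 RPKM in WT libraries. The highest Znrf3 cKO value, that of Znrf3 cKO 4, was still below the lowest WT value, again WT 1 (log2 fold change -3.95, SE 0.58, adjusted p = 0.00311). Thrb, the thyroid hormone receptor of the list, averaged 5.83 RPKM in Znrf3 cKO and 12.9 RPKM in WT glands and did not pass (adjusted p = 0.116), so that 2 of 3 members fell.

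Other genes also fell by large amounts, in most of them with WT 1 the lowest WT library. The order of the Znrf3 cKO libraries was not shared by all, with Znrf3 cKO 4 highest in Fetub and lowest in Stard5. Fetub, which encodes the protease inhibitor fetuin-B, had 1.63, 1.76, 1.080 and 5.54 RPKM in Znrf3 cKO libraries, against 19.5, 51.4, 45.3 and 53.7 RPKM in WT libraries, with Znrf3 cKO 4 highest of its group and WT 1 lowest of its own (log2 fold change -3.69, SE 0.42, adjusted p = 0.00128). Car8, a carbonic anhydrase relative without enzyme activity, had 0.830, 0.776, 0.647 and 1.62 RPKM in Znrf3 cKO libraries, against 8.44, 30.0, 26.3 and 25.9 RPKM in WT libraries and the same 2 extremes (log2 fold change -3.48, SE 0.36, adjusted p = 0.000932). Acpp, an acid phosphatase, had 0.305, 0.365, 0.114 and 0.483 RPKM in Znrf3 cKO libraries, against 5.36, 19.5, 7.93 and 11.9 RPKM in WT libraries (log2 fold change -3.08, SE 0.32, adjusted p = 0.000927). For each of these genes the groups were separate. Il34, a ligand of the macrophage receptor CSF1R, had 2.06, 1.87, 2.05 and 2.24 RPKM in Znrf3 cKO libraries, against 9.87, 24.4, 19.4 and 20.1 RPKM in WT libraries. Levels were tight in Znrf3 cKO glands and more variable in WT glands (log2 fold change -2.60, SE 0.23, adjusted p = 0.000571). Stard5, which encodes a lipid-binding protein, had 2.30, 2.87, 2.31 and 2.23 RPKM in Znrf3 cKO libraries, against 7.39, 13.9, 9.59 and 12.5 RPKM in WT libraries, without overlap (log2 fold change -1.76, SE 0.17, adjusted p = 0.000824). Orm3, which encodes an orosomucoid, averaged 0.804 ± 0.533 RPKM in Znrf3 cKO and 13.9 ± 4.46 RPKM in WT glands (log2 fold change -3.03, SE 0.28, adjusted p = 0.000594).

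Chromaffin genes were the most uniform of all lists. Each of the 22 tested was lower in Znrf3 cKO glands, with a median log2 fold change of -1.74 against 0.03 over all genes, and 20 to 22 were lower under every alternative tried. The summed level of the list was 225, 175, 169.8 and 181 RPKM in Znrf3 cKO libraries against 1679, 1476, 1355 and 1548 RPKM in WT libraries. Chgb, on chr2:132781278-132795079, encodes secretogranin-1, a protein of the hormone granules, and had 51.5, 44.3, 54.6 and 45.0 RPKM in Znrf3 cKO libraries, against 542, 490.3, 490.4 and 533 RPKM in WT libraries. Both groups were tight and about an order of magnitude apart, and its adjusted p was the smallest of all genes (log2 fold change -3.37, SE 0.09, adjusted p = 1.71e-06). Chga, which encodes chromogranin A of the same granules, had 49.7, 37.2, 27.8 and 29.2 RPKM in Znrf3 cKO libraries, against 362, 331, 333 and 344 RPKM in WT libraries, equally separate (log2 fold change -3.25, SE 0.17, adjusted p = 5.32e-05). Scg2, which encodes secretogranin-2, had 26.2, 25.2, 21.3 and 24.4 RPKM in Znrf3 cKO libraries, against 184, 233, 198 and 251 RPKM in WT libraries (log2 fold change -3.10, SE 0.11, adjusted p = 1.68e-05).

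The enzymes that make catecholamines fell with the granule proteins. Th encodes tyrosine hydroxylase, the first and rate-limiting enzyme, and had 18.4, 11.1, 11.8 and 13.04 RPKM in Znrf3 cKO libraries, against 107, 67.0, 72.9 and 83.5 RPKM in WT libraries. The highest Znrf3 cKO value was well below the lowest WT value (log2 fold change -2.52, SE 0.19, adjusted p = 0.000255). Pnmt, which encodes the enzyme that turns noradrenaline into adrenaline and depends on glucocorticoids in the medulla, had 9.47, 11.2, 2.58 and 4.84 RPKM in Znrf3 cKO libraries, against 156, 142, 64.5 and 98.8 RPKM in WT libraries. It varied more than the others within both groups, and the groups were still far apart (log2 fold change -3.94, SE 0.42, adjusted p = 0.001). Pcsk1, a prohormone convertase of the granules, averaged 0.381 ± 0.0909 RPKM in Znrf3 cKO and 4.19 ± 0.527 RPKM in WT glands (log2 fold change -1.91, SE 0.10, adjusted p = 5.32e-05). Markers of other neural cells moved less than chromaffin genes, with median log2 fold changes of -0.14 (neurons) and -0.20 (Schwann cells). Snap25 and Elavl4 were the lower 2 of 7 tested neuronal genes, and 2 of 7 tested Schwann cell genes were lower. Each list was thus 28.6% lower and 0% higher, against 9.55% and 14.3% over all genes.

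The promoters of 3 of these genes are shown because their levels carried this result and because each holds the palindrome TGACGTCA, the cAMP response element. Capitals mark that motif in each RefSeq window (250 bases before to 50 after the annotated start, GRCm38.p6, read on the strand of the gene). The windows are chr1:79439977-79440276 (minus strand) for Scg2, chr2:132781392-132781691 (plus strand) for Chgb and chr7:142899946-142900245 (minus strand) for Th.
Scg2: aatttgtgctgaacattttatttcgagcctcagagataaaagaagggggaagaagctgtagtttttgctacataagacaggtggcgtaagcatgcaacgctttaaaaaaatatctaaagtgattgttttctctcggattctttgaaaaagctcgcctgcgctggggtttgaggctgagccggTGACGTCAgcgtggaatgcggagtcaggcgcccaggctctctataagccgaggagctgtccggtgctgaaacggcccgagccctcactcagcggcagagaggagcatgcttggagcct
Chgb: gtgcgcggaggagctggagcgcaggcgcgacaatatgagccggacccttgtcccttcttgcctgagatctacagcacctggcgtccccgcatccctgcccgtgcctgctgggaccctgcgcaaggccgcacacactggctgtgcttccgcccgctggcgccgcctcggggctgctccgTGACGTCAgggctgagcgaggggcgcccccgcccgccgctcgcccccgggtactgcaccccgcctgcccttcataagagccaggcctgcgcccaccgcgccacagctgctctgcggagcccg
Th: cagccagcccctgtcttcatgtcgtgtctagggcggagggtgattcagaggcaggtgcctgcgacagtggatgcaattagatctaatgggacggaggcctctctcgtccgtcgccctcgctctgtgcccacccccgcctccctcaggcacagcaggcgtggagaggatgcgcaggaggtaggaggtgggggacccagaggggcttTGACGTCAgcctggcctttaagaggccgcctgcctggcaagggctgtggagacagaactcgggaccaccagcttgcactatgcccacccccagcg
The motif begins 68 bases before the start in Scg2, 72 in Chgb and 45 in Th. It was found in 6 of the 18 lower chromaffin genes that have a window (33.3%; Cartpt, Chgb, Pcsk1, Scg2, Slc18a2 and Th), in 3.38% of the 11096 tested genes with a window and in 1.79% of all 32851 windows. These are matches of letters and were not tested as binding sites.

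**Figure D3:**
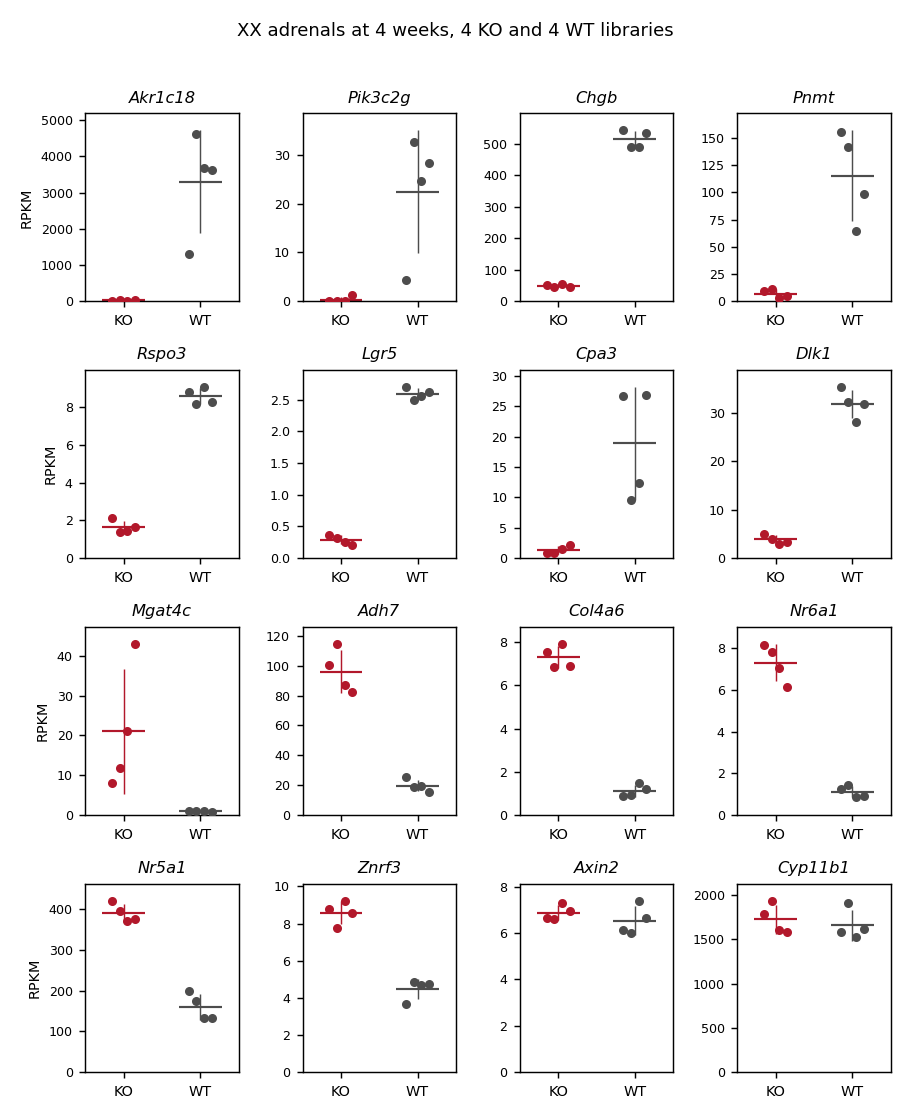
RPKM (y axes, linear, from 0) of 16 genes in the 4 KO (red, left) and 4 WT (grey, right) libraries of XX adrenals at 4 weeks; each point is a library, horizontal lines are means and vertical lines 1 SD. Akr1c18, Pik3c2g, Chgb, Pnmt, Rspo3, Lgr5, Cpa3 and Dlk1 are lower in every KO library, Mgat4c, Adh7, Col4a6, Nr6a1, Nr5a1 and Znrf3 are higher in every KO library, and Axin2 and Cyp11b1 overlap.

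Most genes of steroid production did not pass the test. Of 22 tested genes of steroidogenesis, 4 were higher (Nr5a1, Hsd3b1, Soat1 and Fdxr), 3 lower (Lipe, Hsd11b1 and Mrap) and 15 did not pass, with a median of 0.07. These counts were unstable: the higher genes numbered 1 to 4 under the alternatives and were 2 without Znrf3 cKO 2 or WT 3 and 1 without any 1 of Znrf3 cKO 3, Znrf3 cKO 4, WT 2 and WT 4, and the lower genes numbered 1 to 4 and were 1 without any 1 library other than Znrf3 cKO 2 and WT 1. Cyp11b1, the enzyme that completes corticosterone in the fasciculata, had 1793, 1934, 1606 and 1588 RPKM in Znrf3 cKO libraries, against 1582, 1915, 1525 and 1620.2 RPKM in WT libraries. Its groups overlapped (log2 fold change 0.06, SE 0.11, adjusted p = 0.73). Star, which moves cholesterol into mitochondria, had 1962, 1719, 1498 and 1607 RPKM in Znrf3 cKO libraries, against 2791, 2135, 1907 and 1892 RPKM in WT libraries. The difference did not pass with the deposited scaling (log2 fold change -0.35, SE 0.15, adjusted p = 0.126) and passed with a common RPKM sum (adjusted p = 0.0301). Hsd3b1, a hydroxysteroid dehydrogenase of steroid synthesis, had 8451, 10762, 9341 and 9322 RPKM in Znrf3 cKO libraries, against 5741, 7064, 7218 and 6942 RPKM in WT libraries, higher in every Znrf3 cKO library (log2 fold change 0.49, SE 0.13, adjusted p = 0.026), but the call was lost in 10 of 15 alternatives.

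Glomerulosa genes fell in part. Cyp11b2, the aldosterone synthase, had 345, 344, 315 and 291 RPKM in Znrf3 cKO libraries, against 388, 619.6, 325 and 436 RPKM in WT libraries. WT 2 was the highest library and the groups overlapped (log2 fold change -0.41, SE 0.18, adjusted p = 0.141). Vsnl1, a calcium sensor enriched in the glomerulosa, had 4.64, 2.41, 4.68 and 2.33 RPKM in Znrf3 cKO libraries, against 10.2, 20.2, 9.77 and 14.02 RPKM in WT libraries, lower in every Znrf3 cKO library (log2 fold change -1.68, SE 0.27, adjusted p = 0.00434). Kcnk9, a potassium channel that holds the membrane potential of glomerulosa cells, averaged 7.83 ± 4.26 RPKM in Znrf3 cKO and 29.2 ± 8.43 RPKM in WT glands (log2 fold change -1.85, SE 0.33, adjusted p = 0.00602). Agtr1b, an angiotensin II receptor, averaged 2.58 ± 0.779 RPKM in Znrf3 cKO and 8.64 ± 2.64 RPKM in WT glands (log2 fold change -1.42, SE 0.22, adjusted p = 0.00359). Of 16 tested members 5 fell (Cacna1d, Agtr1b, Vsnl1, Kcnk9 and Shh), 2 rose (Kcnk3 and Oca2) and 9 did not pass, with a median of -0.36. Between 4 and 6 were lower under the alternatives, but 0 to 2 were higher, with none higher without any 1 of Znrf3 cKO 2, Znrf3 cKO 4 and WT 4, and 1 without any 1 of Znrf3 cKO 1, Znrf3 cKO 3, WT 2 and WT 3.

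Most cholesterol synthesis genes did not pass. Of 23 tested, 4 were lower (Dhcr7, Fdps, Sc5d and Tm7sf2) and none higher, with a median of -0.45. Dhcr7, a late enzyme of the pathway, had 38.0, 52.3, 25.04 and 31.9 RPKM in Znrf3 cKO libraries, against 75.7, 86.0, 70.0 and 78.2 RPKM in WT libraries, lower in every Znrf3 cKO library (log2 fold change -1.10, SE 0.20, adjusted p = 0.00648). Scd1, which encodes a fatty acid desaturase, had 68.9, 12.8, 72.1 and 197 RPKM in Znrf3 cKO libraries, against 359.8, 402, 812 and 580.3 RPKM in WT libraries. It spread widely in both groups, with Znrf3 cKO 2 lowest and WT 3 highest (log2 fold change -3.07, SE 0.71, adjusted p = 0.0168).

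Nr5a1 was higher in every Znrf3 cKO library, and so were Nr6a1 and Nr5a1os among the genes near it. Nr5a1, on chr2:38692656-38714542 (minus strand), had 421, 395, 372 and 376 RPKM in Znrf3 cKO libraries, against 199.5, 174, 133 and 134 RPKM in WT libraries. The groups were separate, with WT 1 and WT 2 above the other WT libraries (log2 fold change 1.30, SE 0.14, adjusted p = 0.000953). Nr6a1, on chr2:38723370-38927688 beside it, encodes the germ cell nuclear factor, another orphan nuclear receptor, and had 8.17, 7.85, 7.04 and 6.17 RPKM in Znrf3 cKO libraries, against 1.25, 1.44, 0.870 and 0.918 RPKM in WT libraries. Its rise was larger and its spread small (log2 fold change 1.97, SE 0.12, adjusted p = 0.000108). Nr5a1os, on chr2:38712676-38720638 and the opposite strand, overlaps the start of Nr5a1 and had 6.06, 4.53, 5.41 and 4.08 RPKM in Znrf3 cKO libraries, against 2.49, 1.91, 1.31 and 1.45 RPKM in WT libraries (log2 fold change 1.12, SE 0.16, adjusted p = 0.00272). The libraries were made with a strand-specific kit, but whether strand was used in counting is not given in the sources used here, so reads of this pair may not be fully separated.

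The neighbourhood was examined after these values were seen. Of 12 tested genes within 500 kb of Nr5a1, only Nr6a1, Nr5a1os and Rpl35 were called, all 3 higher (25%, against 14.3% over all genes). Rpl35 is also a ribosomal protein gene, and 78 of 80 tested genes of that kind were higher wherever they lie. The other 9 did not pass, among them Adgrd2-ps (log2 fold change 0.48, SE 0.16, adjusted p = 0.0584), Arpc5l (log2 fold change 0.24), Psmb7 (log2 fold change 0.21) and Nek6 (log2 fold change 0.20). Golga1, which encodes a golgin, averaged 8.54 ± 0.362 RPKM in Znrf3 cKO and 8.52 ± 0.202 RPKM in WT glands. In 4 of the 12 neighbours every Znrf3 cKO library lay above every WT library, against 16.2% of all tested genes. Nr6a1 was also higher in XY glands at 4 weeks, with 10.4, 10.7, 10.7 and 7.23 RPKM in Znrf3 cKO and 1.08, 0.873, 0.911 and 1.58 RPKM in WT libraries. The Sf1-Cre transgene uses regulatory sequence from this locus, and its part in these levels was not tested.

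Outside these lists, the largest rises were in genes of varied roles. Mgat4c, which encodes a glycosyltransferase family member, had 8.16, 11.9, 21.03 and 43.0 RPKM in Znrf3 cKO libraries, against 1.05, 1.02, 0.924 and 0.809 RPKM in WT libraries. WT levels were tight, and Znrf3 cKO levels were spread widely above them (log2 fold change 3.24, SE 0.42, adjusted p = 0.00216). Adh7, an alcohol and retinol dehydrogenase, had 100.4, 114, 86.9 and 82.4 RPKM in Znrf3 cKO libraries, against 25.2, 18.5, 19.6 and 15.7 RPKM in WT libraries, clearly apart (log2 fold change 2.23, SE 0.15, adjusted p = 0.000207). Col4a6, a collagen chain of basement membranes, had 7.53, 6.87, 7.91 and 6.90 RPKM in Znrf3 cKO libraries, against 0.870, 0.916, 1.47 and 1.21 RPKM in WT libraries (log2 fold change 1.98, SE 0.11, adjusted p = 5.32e-05). Mgarp, which encodes a mitochondrial protein of steroidogenic tissue, had 669.8, 855, 629 and 622 RPKM in Znrf3 cKO libraries, against 305, 211, 183 and 216 RPKM in WT libraries, with no overlap (log2 fold change 1.61, SE 0.17, adjusted p = 0.000932).

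Further rises included Pipox, a peroxisomal oxidase of pipecolic acid and sarcosine, at 11.2, 16.7, 22.2 and 24.99 RPKM in Znrf3 cKO libraries, against 2.74, 4.39, 6.02 and 5.07 RPKM in WT libraries. Both groups varied and did not overlap (log2 fold change 1.81, SE 0.27, adjusted p = 0.00333). Pde7a, a phosphodiesterase that degrades cAMP, averaged 47.2 ± 7.48 RPKM in Znrf3 cKO and 17.4 ± 1.15 RPKM in WT glands (log2 fold change 1.38, SE 0.12, adjusted p = 0.000504). Nat8, an acetyltransferase, averaged 6.16 ± 0.988 RPKM in Znrf3 cKO and 1.53 ± 0.139 RPKM in WT glands (log2 fold change 1.49, SE 0.11, adjusted p = 0.00025). Sema5b, a semaphorin, averaged 16.3 ± 2.85 RPKM in Znrf3 cKO and 5.20 ± 0.709 RPKM in WT glands (log2 fold change 1.48, SE 0.14, adjusted p = 0.000594). Hspb8, a small heat shock protein, averaged 84.8 ± 45.7 RPKM in Znrf3 cKO and 30.2 ± 14.2 RPKM in WT glands, and Znrf3 cKO 3 alone held 153 RPKM (log2 fold change 1.43, SE 0.37, adjusted p = 0.0263). Srd5a1, a steroid 5-alpha-reductase, had 30.9, 20.8, 22.7 and 24.2 RPKM in Znrf3 cKO libraries, against 7.71, 11.3, 13.8 and 13.3 RPKM in WT libraries, without overlap (log2 fold change 1.05, SE 0.19, adjusted p = 0.00611). Its relative Srd5a2 averaged 95.6 ± 16.8 RPKM in Znrf3 cKO and 51.9 ± 13.7 RPKM in WT glands (log2 fold change 0.90, SE 0.22, adjusted p = 0.0206).

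Dlk1, which encodes a membrane protein related to Notch ligands, was among the most even falls at 5.05, 3.96, 2.99 and 3.40 RPKM in Znrf3 cKO libraries, against 35.3, 32.3, 28.2 and 31.9 RPKM in WT libraries. No Znrf3 cKO value came near the WT range (log2 fold change -2.78, SE 0.13, adjusted p = 5.32e-05). Of the other progenitor and transcription factor genes, Tcf21, Gli1 and Nr2f2 were lower and Nr5a1 and Nr6a1 higher, 6 called of 12 tested. Igfbp6, which binds insulin-like growth factors, averaged 7.02 ± 2.41 RPKM in Znrf3 cKO and 17.1 ± 1.28 RPKM in WT glands (log2 fold change -1.22, SE 0.19, adjusted p = 0.00397), whereas Igfbp7 averaged 460.5 ± 14.9 RPKM in Znrf3 cKO and 237 ± 43.8 RPKM in WT glands (log2 fold change 0.97, SE 0.12, adjusted p = 0.00179).

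Few cell cycle genes passed the test. The 36 tested genes had a median of 0.58 against 0.03 over all genes, and only Pcna and Ccnb2 were called higher and Ccnd1 and Ccnd2 lower. Mki67, which encodes the Ki-67 antigen of dividing cells, had 12.3, 6.84, 13.6 and 18.3 RPKM in Znrf3 cKO libraries, against 7.21, 5.19, 11.3 and 9.46 RPKM in WT libraries. The groups overlapped, and Znrf3 cKO 2 was the lowest of its group (log2 fold change 0.54, SE 0.30, adjusted p = 0.227). Without Znrf3 cKO 2, the library with the highest interferon sum, 23 of the list were higher, without both Znrf3 cKO 2 and WT 1 it was 18, and across all alternatives 0 to 23, with none higher without any 1 other library except WT 3. Pcna, the sliding clamp of DNA replication, had 53.1, 35.5, 60.1 and 68.3 RPKM in Znrf3 cKO libraries, against 32.1, 25.6, 37.4 and 35.6 RPKM in WT libraries (log2 fold change 0.69, SE 0.20, adjusted p = 0.0399), and its call was lost in 10 of 15 alternatives. Of 34 tested genes of a DNA replication list used by the study, 6 were higher (17.6%) and none lower (median 0.36). Over all genes 14.3% were higher, and over protein-coding genes alone 9.74%. Under the alternatives 4 to 20 were higher, with 16 without Znrf3 cKO 2, where 2667 of all 19733 tested genes were higher. That list was chosen by the study and is not independent evidence.

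Inhibitors of the cycle and p53 targets went both ways, with 5 of 24 tested higher (Bax, Trp53, Cdkn2a, Cdkn1c and Glb1) and 4 lower (Sesn1, Cdkn1b, Sesn2 and Trp53inp1). These were 20.8% higher and 16.7% lower, against 14.3% and 9.55% over all genes, with a median of -0.10. Cdkn1b, which encodes the inhibitor p27, had 6.68, 5.88, 7.25 and 7.08 RPKM in Znrf3 cKO libraries, against 10.8, 17.3, 16.4 and 21.2 RPKM in WT libraries, lower in every Znrf3 cKO library (log2 fold change -1.14, SE 0.18, adjusted p = 0.00384). Cdkn2a, whose locus encodes p16 and ARF, had 1.59, 1.47, 1.86 and 2.41 RPKM in Znrf3 cKO libraries, against 0.527, 0.659, 1.201 and 0.867 RPKM in WT libraries, higher in every Znrf3 cKO library (log2 fold change 0.65, SE 0.14, adjusted p = 0.0147). Cdkn1a, which encodes p21, had 14.3, 12.7, 9.98 and 11.8 RPKM in Znrf3 cKO libraries, against 20.6, 8.89, 6.37 and 6.69 RPKM in WT libraries. WT 1 was the highest of all libraries and the groups overlapped (log2 fold change 0.32, SE 0.32, adjusted p = 0.512). Jun, an immediate early gene, had 100.1, 51.2, 74.1 and 70.6 RPKM in Znrf3 cKO libraries, against 48.1, 23.9, 24.2 and 30.2 RPKM in WT libraries, with WT 1 the highest WT library and just below the lowest Znrf3 cKO value (log2 fold change 1.22, SE 0.26, adjusted p = 0.0119).

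Macrophage genes did not separate the groups. Of 18 tested markers none was higher and 1 lower (Cd163), with a median of -0.10. Cd68, a lysosomal marker of macrophages, had 10.5, 31.8, 10.2 and 11.3 RPKM in Znrf3 cKO libraries, against 17.4, 12.0, 8.63 and 9.11 RPKM in WT libraries. Znrf3 cKO 2 alone was far above the rest (log2 fold change 0.29, SE 0.37, adjusted p = 0.605), and under the alternatives, those without this library among them, at most 1 marker was higher and 2 were lower. Adgre1, which encodes F4/80, averaged 5.56 ± 2.83 RPKM in Znrf3 cKO and 6.73 ± 1.66 RPKM in WT glands (log2 fold change -0.30, SE 0.27, adjusted p = 0.465). Mertk, a receptor for dying cells on phagocytes, averaged 5.23 ± 1.56 RPKM in Znrf3 cKO and 7.06 ± 2.86 RPKM in WT glands (log2 fold change -0.34, SE 0.26, adjusted p = 0.377). Of the 98 tested genes of the study's adrenal macrophage list 8 were lower (8.16%) and none higher. Over all genes 9.55% were lower, and over protein-coding genes alone 12.3%. The lower count ran from 4 to 24 under the alternatives, at 4 without any 1 of Znrf3 cKO 1, Znrf3 cKO 3, Znrf3 cKO 4 and WT 4, 5 without WT 1 or without WT 2, and 24 without both Znrf3 cKO 2 and WT 1. In that last setting 2880 of all 19628 tested genes were lower.

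The study's other immune and senescence lists, which are not independent evidence either, held genes of both directions. Of 35 tested SASP genes (secreted by senescent cells) 4 were higher (11.4%) and 6 lower (17.1%). Of 84 SenMayo genes, another senescence list, 5 were higher (5.95%) and 16 lower (19%). Over all genes 14.3% were higher and 9.55% lower, and over protein-coding genes alone 9.74% and 12.3%. Of 79 cytokine genes 5 were higher (6.33%) and 8 lower (10.1%), and of 21 genes of phagocytosis signalling 2 were higher (9.52%) and none lower. Mif, a cytokine that also acts as a tautomerase, had 80.0, 96.1, 85.6 and 88.8 RPKM in Znrf3 cKO libraries, against 54.8, 42.9, 41.4 and 45.9 RPKM in WT libraries, higher in every Znrf3 cKO library (log2 fold change 0.91, SE 0.10, adjusted p = 0.00113). Cx3cl1, a chemokine for monocytes, had 7.72, 9.11, 6.72 and 5.78 RPKM in Znrf3 cKO libraries, against 12.9, 10.8, 11.2 and 11.7 RPKM in WT libraries, lower in every Znrf3 cKO library (log2 fold change -0.62, SE 0.12, adjusted p = 0.00992). Cxcl12, a chemokine of stromal cells, averaged 2.77 ± 0.197 RPKM in Znrf3 cKO and 9.98 ± 2.67 RPKM in WT glands (log2 fold change -1.52, SE 0.15, adjusted p = 0.000796). Csf1, the main growth factor of macrophages, had 7.65, 17.8, 9.33 and 9.40 RPKM in Znrf3 cKO libraries, against 13.1, 7.66, 6.17 and 8.43 RPKM in WT libraries. Znrf3 cKO 2 and WT 1 were the highest of their groups, which overlapped (log2 fold change 0.27, SE 0.27, adjusted p = 0.517). Genes of T and NK cells (10 tested), of B and plasma cells (7) and of erythrocytes (7) held no called member.

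Mast cell genes fell sharply, in a list added after the values were seen. Cpa3, the mast cell carboxypeptidase, had 0.767, 0.837, 1.48 and 2.16 RPKM in Znrf3 cKO libraries, against 26.7, 9.50, 12.4 and 26.9 RPKM in WT libraries. WT 1 and WT 4 were the highest libraries, and no Znrf3 cKO library came near the WT range (log2 fold change -3.01, SE 0.35, adjusted p = 0.00146). The protease genes Cma1 (chymase) and Tpsb2 (tryptase) averaged 1.53 ± 0.561 RPKM in Znrf3 cKO and 15.5 ± 7.53 RPKM in WT glands, and 0.747 ± 0.416 RPKM in Znrf3 cKO and 9.61 ± 4.41 RPKM in WT glands (log2 fold change -2.61, SE 0.32, adjusted p = 0.00182 for Cma1; log2 fold change -2.53, SE 0.30, adjusted p = 0.00165 for Tpsb2). Of 9 tested genes 8 were lower, and the sum of the list was 10.97 to 15.9 RPKM in Znrf3 cKO and 44.7 to 118 RPKM in WT libraries. The exception was Kit, the stem cell factor receptor that mast cells share with other cells, at 5.46, 5.30, 5.93 and 5.55 RPKM in Znrf3 cKO libraries, against 2.06, 1.65, 2.18 and 2.35 RPKM in WT libraries. It was higher in every Znrf3 cKO library (log2 fold change 1.11, SE 0.09, adjusted p = 0.000347).

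Adipocyte genes were lower, 8 of 12 tested with none higher and a median of -1.58, and 4 to 8 were lower under the alternatives, the fewest in one fit over all groups. Their summed level was 413, 163, 211 and 574 RPKM in Znrf3 cKO libraries and 1087, 792, 943 and 835 RPKM in WT libraries. The groups did not overlap, and the Znrf3 cKO libraries differed widely among themselves. Cfd (adipsin) averaged 100.3 ± 29.4 RPKM in Znrf3 cKO and 374 ± 81.1 RPKM in WT glands (log2 fold change -1.91, SE 0.22, adjusted p = 0.00145), and Plin4, a coat protein of lipid droplets, averaged 8.53 ± 3.34 RPKM in Znrf3 cKO and 40.2 ± 5.80 RPKM in WT glands (log2 fold change -2.19, SE 0.28, adjusted p = 0.00201). Ucp1, which marks brown fat, averaged 54.3 RPKM in Znrf3 cKO and 63.8 RPKM in WT glands and did not pass. How much surrounding fat each gland kept was not tested.

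The sexes were compared by the interaction of sex and genotype at 4 weeks, whose value is the log2 fold change in XX minus that in XY glands. Of 20297 genes tested, 377 had a higher (1.86%) and 167 a lower (0.823%) effect in XX glands, together 2.68%, at an adjusted p below 0.05. The authors scaled each sex on its own, so that levels across the sexes are set side by side only as a description. Mgat4c had the most distinct pattern: in XY glands it was 0.127, 0.160, 0.155 and 0.103 RPKM in Znrf3 cKO and 0.624, 0.507, 0.764 and 0.685 RPKM in WT libraries. It was thus lower in every XY Znrf3 cKO library, opposite to XX glands (difference of log2 fold changes 3.77, SE 0.46, adjusted p = 0.0138). This difference passed in 20 of 21 alternatives, with adjusted p up to 0.0511.

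Il34 in XY glands had 5.11, 4.64, 5.26 and 2.93 RPKM in Znrf3 cKO and 8.64, 8.07, 6.31 and 7.28 RPKM in WT libraries. The fall was smaller than in XX glands (difference of log2 fold changes -1.94, SE 0.30, adjusted p = 0.023). Stard5 in XY glands had 4.44, 4.65, 4.802 and 5.51 RPKM in Znrf3 cKO and 3.75, 3.21, 6.07 and 6.64 RPKM in WT libraries, with overlap (difference of log2 fold changes -1.79, SE 0.27, adjusted p = 0.023). Pik3c2g reached at most 1.88 RPKM in XY WT libraries, against a WT range of 4.38 to 32.6 RPKM in XX glands (difference of log2 fold changes -3.33, SE 0.70, adjusted p = 0.0355). At that level little fall could be measured in XY glands, so the difference largely follows from the WT levels. Akr1c18 varied from 2.82 to 997 RPKM among XY WT libraries, and its difference did not pass (difference of log2 fold changes -2.23, SE 1.86, adjusted p = 0.542).

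Mif in XY glands had 31.6, 42.9, 60.9 and 67.4 RPKM in Znrf3 cKO and 63.3, 78.4, 49.6 and 47.6 RPKM in WT libraries, which overlapped (difference of log2 fold changes 1.18, SE 0.29, adjusted p = 0.0467). Gpha2, the alpha subunit of the hormone thyrostimulin, had 19.3, 11.7, 21.8 and 18.9 RPKM in Znrf3 cKO libraries, against 6.58, 8.90, 10.6 and 9.24 RPKM in WT libraries in XX glands, where it was higher (log2 fold change 0.93, SE 0.20, adjusted p = 0.0124), and its effect in XY glands differed (difference of log2 fold changes 1.52, SE 0.35, adjusted p = 0.0429). Chromaffin genes were also examined in XY glands, with Chgb at 182, 103, 185 and 56.0 RPKM in XY Znrf3 cKO and 1091, 1479, 984 and 1038 RPKM in XY WT libraries. Its difference between the sexes did not pass (difference of log2 fold changes -0.12, SE 0.40, adjusted p = 0.894), and no chromaffin gene of 23 tested passed. The calls of this comparison were fragile: leaving out XY Znrf3 cKO 2 left none, and leaving out XX WT 1 gave 1279 higher and 877 lower. Of 21 alternatives, the difference lost its call in 6 for Stard5, 7 for Il34, 14 for Pik3c2g, 15 for Gpha2 and 17 for Mif.

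**Figure D4:**
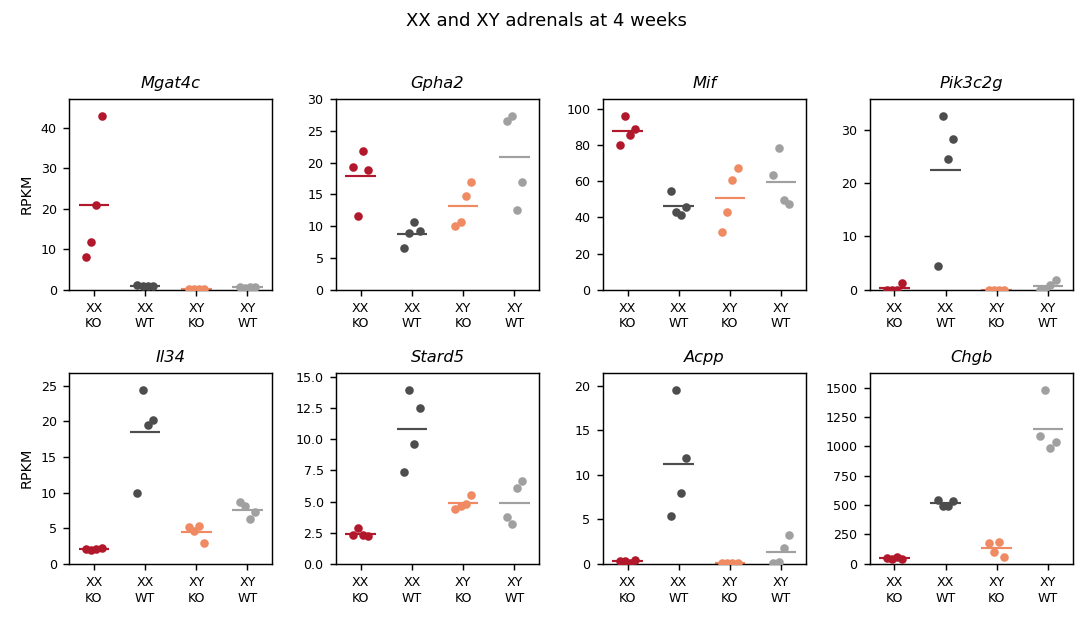
RPKM (y axes, linear, from 0) of 8 genes in XX KO (red), XX WT (dark grey), XY KO (orange) and XY WT (light grey) adrenals at 4 weeks, left to right; points are libraries and lines are means of 4. Of the 16 libraries, the 4 XX KO libraries are the highest in Mgat4c, Pik3c2g and Acpp are highest in XX WT, and Chgb is low in the KO libraries of both sexes.

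Between XX glands at 4 and at 6 weeks no gene of 20222 tested (0%) differed in the effect of the knockout at an adjusted p below 0.05 by limma, and 1740 did at an unadjusted p below 0.05. The smallest adjusted p was 0.0845. A fit over all groups of the series gave 6 higher and 34 lower. At 6 weeks Mgat4c had 68.0, 15.6, 34.9 and 7.53 RPKM in Znrf3 cKO and 1.12, 2.50, 1.139 and 1.12 RPKM in WT libraries, without overlap. Akr1c18 had 67.3, 48.0, 234 and 14.9 RPKM in Znrf3 cKO and 906, 3810, 789 and 147 RPKM in WT libraries at 6 weeks, where the groups overlapped.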

How the data were processed

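Polyadenylated RNA of whole adrenals was sequenced after a strand-specific library preparation. The deposited table holds RPKM per gene: per the labels, the authors used bcl2fastq 2.17.1.14, cutadapt 3.2, FastQC 0.11.7, HISAT2 2.2.1 and DESeq2 1.34.0 with mm10, and the values carry size factors set within each sex and age. The annotation release is not given in the sources used here, and exon lengths were taken from GENCODE M21. Whole reads were recovered for 98.5% to 98.8% of values (tolerance 0.02 read), which gave the depths stated above. Of 54838 genes, 1233 had no symbol, and 37 mitochondrial genes were listed at 0 throughout. Columns of 4 of the 73 libraries copied others and were left out of every fit. A withheld item is not reported here.

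Genes that averaged 0.5 RPKM or more in any compared group were tested with limma 3.58.1 (R 4.3.3, trend) on log2(RPKM + 1), with Benjamini-Hochberg adjustment and a threshold of 0.05. RPKM are not counts, so a count model was not the main test; voom on the recovered reads was an alternative. The scripts were tested on simulated data. Interactions used 16 libraries each. Members and lists were chosen with earlier results of these data known. Genes named were Znrf3, Xist, Ddx3y and set pathway genes, the 12 largest rises and as many falls (at least 5 RPKM, no overlap), up to 4 called genes per list with the smallest p, and up to 8 per direction of each interaction; other genes in counts, the mast cell list, the Nr5a1 neighbourhood and the lists of ribosomal, spliceosomal, proteasome, glutathione transferase and interferon-induced genes were chosen after their values were seen. The alternatives tried were no filter, a pseudocount of 0.1, one fit over all groups, a common RPKM sum, a fold threshold, voom, and leaving out each library; protein-coding genes only, and leaving out Znrf3 cKO 2 with WT 1, were chosen after seeing the data.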

Additional observations from a re-analysis of the deposited data

Results flagged for a closer look

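In groups of 4 libraries, 12 of 112 checked held 1 library whose gap to its nearest neighbour was too large a share of the group's range by Dixon's test. Chance gives about 1 in 20 for independent groups chosen without their values. That rate is only a guide here, as some genes and lists were chosen after their values were seen. The flags also overlap, since Cd68 is part of the macrophage sum and Rpl35 of the ribosomal sum. Znrf3 cKO 2 was far above its group in the summed macrophage markers (954 RPKM), the interferon-induced genes (4952 RPKM), Cd68 (31.8 RPKM) and Stard5 (2.87 RPKM). Znrf3 cKO 3 stood alone in the kidney sum (98.6 RPKM), and Znrf3 cKO 4 in Pik3c2g (1.22 RPKM) and Fetub (5.54 RPKM). WT 1 was far above the other WT libraries in the macrophage sum (855 RPKM), the ribosomal protein sum (11616 RPKM) and Rpl35 (56.7 RPKM), and below them in Znrf3 (3.66 RPKM). WT 3 was highest in Gli1 (1.93 RPKM).

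For 9 of the genes described here, the effect of the knockout differed between XX and XY glands at 4 weeks by the interaction test in limma. The difference (log2 fold change in XX minus that in XY) was 3.77 for Mgat4c, 1.52 for Gpha2, 1.18 for Mif and 0.60 for Rpl35. It was -3.33 for Pik3c2g, -2.20 for Acpp, -1.94 for Il34, -1.79 for Stard5 and -0.80 for Cdkn1b. For Pik3c2g the low level in XY WT libraries left little room for a fall there. Of the 21 alternatives, the call was lost in 1 for Mgat4c, 6 for Stard5, 7 for Il34, 14 for Pik3c2g, 15 for Gpha2 and for Rpl35, 16 for Acpp, 17 for Mif and 18 for Cdkn1b.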

How the results depend on the processing

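Of 128 named genes called for the Znrf3 cKO effect in XX glands at 4 weeks, 98 passed in every alternative that kept all 8 libraries or left out 2. Without any 1 library, 104 passed. Many of them were named for large changes or small p, so these counts do not speak for all genes. Of the 2809 higher and 1878 lower genes, 1609 and 1137 were called again without WT 4, the fewest of any fit without 1 library. Without 1 library each, 1620 to 3445 genes were higher, 1150 to 2696 lower, and 120 to 203 list members were called. Voom on the recovered reads gave 2433 higher and 1945 lower. A common RPKM sum gave 1729 higher, protein-coding genes alone 1284 higher, and a fold threshold 78 higher and 356 lower. Without Znrf3 cKO 2 and WT 1, 2880 were lower and 261 list members were called. XX minus XY was the least stable: a pseudocount of 0.1 gave 245 higher, no filter 27 higher and 26 lower, one fit 27 and 60, a common sum 80 and 76, and without XX Znrf3 cKO 2 and WT 1 it was 1131 and 810; without 1 library the range was 0 to 1279 higher and 0 to 877 lower. For XX at 4 minus 6 weeks, no filter gave 1 lower, one fit 6 higher and 34 lower, and without Znrf3 cKO 2 and WT 1 of 4 weeks 35 and 93; without 1 library, 0 to 20 higher and 0 to 65 lower. The cause of these shifts was not tested. No called value changed sign. Of 96 gene values followed, 14 that did not pass did so, among them the log2 fold changes of Axin2 (-0.04 to 0.12), Cyp11b1 (-0.06 to 0.13) and Cd68 (-0.08 to 0.48) and the XX minus XY difference of Chga (-0.16 to 0.32). No paired analysis was possible because the labels give no replicate numbers shared between the groups. The 4 libraries per group and genes below 1 RPKM limit the precision.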

Other observations

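Nearly all cytosolic ribosomal protein genes rose, a pattern examined after the values were seen. Of 80 tested ribosomal protein genes 78 were higher in Znrf3 cKO glands and none lower, with a median log2 fold change of 0.53 against 0.03 over all genes, and 59 to 78 were higher under the alternatives. Their median XX minus XY difference at 4 weeks was 0.52, close to the XX fold change itself, against 0.02 over all genes. Of the 80, 19 had a higher effect in XX than in XY glands, against 1.86% of all genes, in a comparison whose calls were fragile. Their summed level was 13473, 15337, 14042 and 14198 RPKM in Znrf3 cKO libraries and 11616, 9243, 9348 and 9140.3 RPKM in WT libraries, without overlap and with WT 1 the highest WT library. Rpl35, a protein of the large subunit, had 67.3, 77.7, 75.8 and 76.7 RPKM in Znrf3 cKO and 56.7, 42.2, 43.1 and 43.8 RPKM in WT libraries (log2 fold change 0.68, SE 0.10, adjusted p = 0.00377). Of 77 tested mitochondrial ribosomal protein genes 45 were higher and none lower (16 to 45 under the alternatives, with 19 without Znrf3 cKO 3, 21 without Znrf3 cKO 4 and 17 without WT 2 or without WT 4), of 11 spliceosomal Sm and U snRNP genes 10 and none, and of 37 proteasome subunit genes 15 and none. The shares higher were 58.4%, 90.9% and 40.5%, against 14.3% over all genes, in lists also chosen after the values were seen. The median XX minus XY difference was 0.28 for the mitochondrial ribosomal, 0.40 for the spliceosomal and 0.20 for the proteasome genes. Their median XX fold changes (log2) were 0.29, 0.48 and 0.23. Genes of all these lists are mostly short. Among protein-coding genes, 18.9% of the 3361 with the shortest exon length (2675 bases or less) were higher and 8.96% lower, against 3.13% higher and 17.8% lower among the 3359 of 6700 bases or more. The median log2 fold change was 0.099 in these short genes and -0.105 in these long genes. The part of gene length or RNA quality in these rises, or in the falls described above, was not tested.

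Glutathione transferases of the mu class, which conjugate glutathione to electrophiles, were also higher. Gstm1 had 192, 209.9, 217 and 255 RPKM in Znrf3 cKO and 96.3, 91.0, 104 and 95.3 RPKM in WT libraries, without overlap (log2 fold change 1.16, SE 0.10, adjusted p = 0.000416). Of 6 tested members 5 were higher (83.3%, against 14.3% over all genes) and none lower, although close copies within the family can share reads.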
